A study of Mus musculus with 24 samples.

Results

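The comparison described here is that of MERVL-KD against control 8-cell stage mouse embryos by total RNA-seq, and its members are all annotated genes counted in those libraries, chosen by leaving out the rows that name repeat families. There were 2 control and 2 MERVL-KD libraries among the 12 RNA libraries of the series used here, which also cover the 2-cell and 4-cell stages, and 55291 genes among 56326 counted features, the other 1035 being repeat families. Of these genes, 18414 had enough counts to be tested.

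Zygotes from B6D2F1 mice (strain BDF2 in the labels) received an injection into the male pronucleus, and no embryo carried a genetic alteration. MERVL-KD embryos received a mix of 3 antisense oligonucleotides (ASOs) against MERVL, and control embryos a scrambled ASO, both at 20 µM. All ASOs had methoxyethyl-modified sugars and phosphorothioate linkages. Each library held 30 embryos without zona pellucida, with a labelled age of 2.5 days post coitum for 8-cell and also for 4-cell embryos and 1.5 for 2-cell embryos, and the 2 libraries of a group are described as biological replicates. The scrambled ASO was present in every control library, so no library came from uninjected embryos. Since each library is a pool of whole embryos, fewer cells of a type and less RNA per cell cannot be told apart.

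MERVL is an endogenous retrovirus of the mouse whose copies are scattered through the genome, and its long terminal repeat, MT2_Mm, acts as a promoter in early embryos. Transcripts that start in such a repeat can run on into a neighbouring gene, so that gene and retrovirus share an RNA. At the 8-cell stage the embryo normally compacts, its cells become polarised, and the outer and inner cells begin to take on trophectoderm and inner cell mass fates.

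The ASOs are printed 5′ to 3′ because their sequence decides which RNAs they can pair with. The capital letter in MERVL-ASO2 marks the base that paired with none of the sites shown further on.
MERVL-ASO1: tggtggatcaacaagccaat
MERVL-ASO2: catttgTctgtttaccacga
MERVL-ASO3: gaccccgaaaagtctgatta
Scramble-ASO: agcgcgggtattgaaccagg
On both strands of the GRCm38 genome, the sequence complementary to MERVL-ASO1 was found 702 times without a mismatch and that of MERVL-ASO3 630 times. MERVL-ASO2 had no perfect site and 322 sites with 1 mismatch. The scrambled ASO had no site with 0 or 1 mismatches and 1 site with 2.

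The targeted retrovirus was checked first. MERVL-int, the internal part of MERVL, stood at 11348 and 11087 CPM (counts scaled to a common library size with TMM factors) in the control libraries and at 259 and 275 in the MERVL-KD libraries. It took 1.07% and 1.08% of all counts in the controls and 0.0278% in each MERVL-KD library. The log2 fold change was -5.40 ± 0.08 (SE, n = 2 per group; adjusted p = 2.42e-12, quasi-likelihood test of edgeR, adjusted by Benjamini-Hochberg over all tested genes and repeat families, used throughout). The libraries followed their labels, and the groups lay far apart.

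Total counts ran from 31557127 to 41482526 per library. Replicates of a group correlated at a Pearson r of 0.992 (control) and 0.991 (MERVL-KD) over tested genes and repeat families. A control and a MERVL-KD library correlated at 0.983 to 0.985. The 10 markers of 8-cell embryos were detected in all 4 libraries, with a summed level of 1373 and 1363 CPM in control and 1103 and 1210 CPM in MERVL-KD embryos. Summed markers of cumulus cells stayed between 20.8 and 25.4 CPM, those of sperm between 0.371 and 0.727 CPM, and those of blood between 0.943 and 2.10 CPM, with Fshr, Tnp2 and the β-globin genes Hbb-bs and Hbb-bt at 0 throughout. Markers of oocytes and lagging early embryos summed to 87.5 to 94.3 CPM with overlapping groups. Markers of the later embryo, from morula to blastocyst, summed to 451 and 432 CPM in control and 349 and 353 CPM in MERVL-KD embryos, and of these Aqp3 and Gata6 passed the test. Whether a difference in developmental pace had a part in the results was not tested.

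In MERVL-KD 8-cell embryos 118 genes were higher and 195 lower by at least 2-fold at an adjusted p under 0.05 (DEGs), which is 0.641% and 1.06% of the genes tested. Without the fold threshold, 276 genes rose (1.5%) and 656 fell (3.56%), and 3582 genes had an unadjusted p under 0.05. The number that fell depended on single libraries, with 412 and 457 genes without control replicate 1 or 2 and 941 and 1268 without MERVL-KD replicate 1 or 2. The median log2 fold change over all tested genes was 0.01, with 9294 genes above 0 and 9120 below. The split between the directions depended on the scaling: dividing by library size alone shifted the median of all genes to 0.13 and gave 197 higher and 155 lower DEGs, so that 56.0% in place of 37.7% of DEGs were higher. By annotation, 90 of the 118 higher DEGs were protein coding and 18 long non-coding, against 140 and 34 of the 195 lower DEGs.

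**Figure D1:**
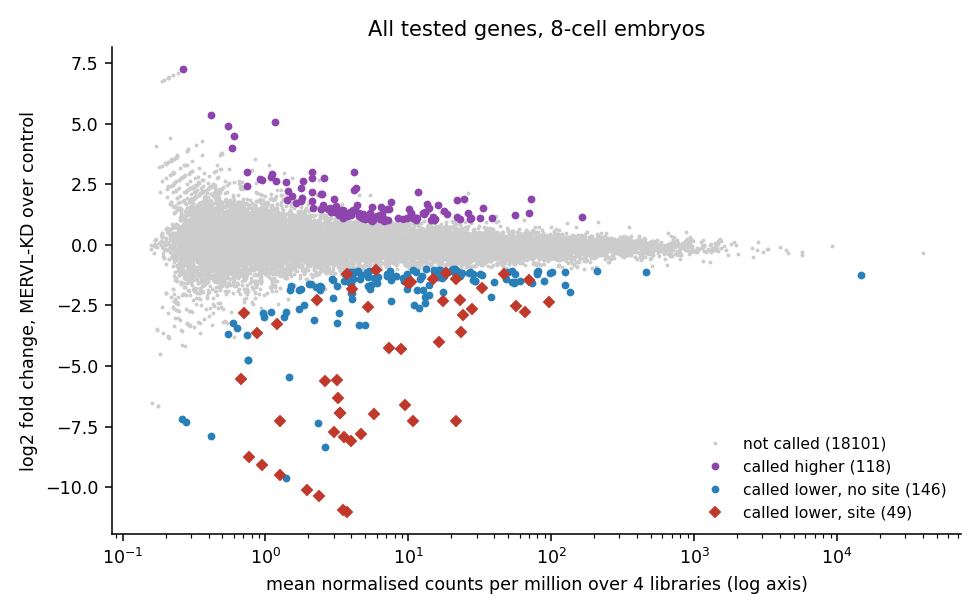
Log2 fold change of MERVL-KD over control against the mean CPM over the 4 libraries (log axis) for the 18414 tested genes. Purple points are the 118 higher DEGs, blue points the 146 lower DEGs without an ASO site and red diamonds the 49 lower DEGs with a site in the transcribed strand. Of the 20 lowest values, 14 are red diamonds.

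The higher DEGs with the smallest adjusted p were led by known targets of the transcription factor p53. Ccng1, which encodes cyclin G1, stood at 32.5 and 28.8 CPM in control and 106 and 120 CPM in MERVL-KD embryos (log2 fold change 1.89 ± 0.12, adjusted p = 2.60e-06). It lies at chr11:40748552-40755311 on the minus strand. Plk2, a polo-like kinase that takes part in cell-cycle checkpoints, rose from 38.0 and 41.3 to 101 and 97.7 CPM (1.33 ± 0.11, adjusted p = 1.79e-05). Every MERVL-KD library exceeded both controls by more than the spread within either group. Trp53inp1, a p53-induced nuclear protein, rose from 94.5 and 108 to 224 and 227 CPM (1.15 ± 0.10, adjusted p = 2.33e-05). Pmaip1, which encodes the pro-apoptotic protein Noxa, rose from 4.75 and 3.77 to 21.4 and 17.0 CPM (2.17 ± 0.21, adjusted p = 9.55e-05). Zmat3, an RNA-binding p53 target, rose from 20.9 and 19.5 to 40.5 and 46.9 CPM (1.11 ± 0.14, adjusted p = 0.000711). The groups were separate in each gene, as they were in all 118 higher DEGs. Zmat3 fell just short of the fold threshold without MERVL-KD replicate 2 (1.00).

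Over the whole p53 lists, of 14 tested genes of arrest and feedback, 4 were higher DEGs (against 0.641% of all genes) and none was lower, with a median log2 fold change of 0.48. Besides Ccng1, Plk2 and Zmat3 the fourth was Btg2, an antiproliferative gene at 4.65 and 3.03 CPM in control and 12.8 and 8.68 CPM in MERVL-KD embryos (1.49 ± 0.28, adjusted p = 0.0108), whose call was lost in a fit of all 12 libraries (adjusted p = 0.153). Sesn2, a stress-induced regulator of growth signalling, rose by less than the fold threshold, from 86.4 and 85.2 to 118 and 127 CPM (0.51 ± 0.10, adjusted p = 0.0103). Mdm4, an inhibitor of p53, fell from 403 and 424 to 339 and 285 CPM (-0.41 ± 0.09, adjusted p = 0.0282). Mdm2, the ubiquitin ligase for p53, stood at 112 and 111 CPM in control and 137 and 142 CPM in MERVL-KD embryos and did not pass (0.32 ± 0.09, adjusted p = 0.0619). Without control replicate 1 or 2, Mdm4 did not pass (adjusted p = 0.0527 and 0.119), and without MERVL-KD replicate 1 Mdm2 did (adjusted p = 0.0334).

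Among 14 tested p53 targets of cell death, 3 were higher DEGs (against 0.641% of all genes) and none was lower, with a median of 0.24. The third beside Trp53inp1 and Pmaip1 was Bbc3, which encodes the pro-apoptotic protein Puma, at 6.06 and 5.75 CPM in control and 13.5 and 11.3 CPM in MERVL-KD embryos (1.07 ± 0.21, adjusted p = 0.0124), and its change was 0.94 without MERVL-KD replicate 1. Eda2r, a receptor of the tumour necrosis factor family, had the widest spread, with 5.59 and 13.4 CPM in control and 29.5 and 55.4 CPM in MERVL-KD embryos, and did not pass (2.16 ± 0.55, adjusted p = 0.136). The groups of Eda2r did not overlap, and its call depended on the setting, with an adjusted p of 0.0385 with DESeq2 and 0.624 when genes with any count were tested. Of 13 targets of repair and metabolism, Ercc5 and Polk rose by 0.87 ± 0.19 and 0.73 ± 0.17 on the log2 scale and Tigar fell by 0.39 ± 0.09, with a median of 0.01. Ercc5 and Polk did not pass without control replicate 2 (adjusted p = 0.0958 and 0.111), nor did Tigar without either control (0.184 and 0.0654). None of the tested members of these 3 lists held a MERVL-ASO site in the transcribed strand, and Tigar held one in the opposite strand.

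Trp53 itself, which encodes p53, stood at 22.5 and 16.9 CPM in control and 19.3 and 12.3 CPM in MERVL-KD embryos (-0.32 ± 0.22, adjusted p = 0.495), and its groups overlapped. Without MERVL-KD replicate 1 it passed (-0.68, adjusted p = 0.0301). Genes of DNA damage signalling and repair had 0 DEGs among 23 tested, with only Mdc1, an adaptor at double-strand breaks, passing (-0.39 ± 0.10, adjusted p = 0.0451), and it did not pass without control replicate 1 or 2 or MERVL-KD replicate 2 (adjusted p = 0.0844, 0.187 and 0.0622). The Bcl2 family and caspases had 0 DEGs among 24. Birc3, an inhibitor of apoptosis, was the only member to pass, falling from 45.0 and 42.0 to 26.3 and 24.9 CPM (-0.76 ± 0.13, adjusted p = 0.00613). In the RNA sensing and interferon list, 0 of 19 genes passed. In that of the integrated stress response 1 of 25 did, Nupr1, a stress-induced chromatin protein, at 15.0 and 14.7 against 27.1 and 30.5 CPM (0.95 ± 0.15, adjusted p = 0.0040). The damage and stress lists thus each held 1 gene that passed or 0. As background, the shares that passed among all genes were 1.5% higher and 3.56% lower, so lists of 19 to 25 tested genes cannot show a shortage of calls. Ercc4, a DNA repair gene given further on as a lower DEG, was not in these lists.

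Other higher DEGs named by their small adjusted p had varied functions. Map3k20, which encodes the stress kinase ZAK, stood at 8.49 and 10.6 against 33.1 and 35.9 CPM (1.85 ± 0.17, adjusted p = 4.62e-05). Pkm, the pyruvate kinase of glycolysis, stood at 16.1 and 14.1 against 37.1 and 37.4 CPM (1.30 ± 0.14, adjusted p = 0.000273). Hspa2, a heat shock protein of the Hsp70 family, stood at 6.23 and 6.49 against 17.1 and 23.7 CPM (1.68 ± 0.21, adjusted p = 0.000583). All 3 had both MERVL-KD values above both control values, as every higher DEG did, with the widest spread in the MERVL-KD values of Hspa2. Unc13c, a regulator of vesicle priming, the transcription factor Rfx7 and the uncharacterised I0C0044D17Rik rose by 1.51 ± 0.14, 1.07 ± 0.14 and 1.25 ± 0.12 on the log2 scale. Gm28017, a short gene of low counts, rose by 3.01 ± 0.34. Outside the naming rule, and chosen after their values were seen, H2-K1, a class I histocompatibility gene, stood at 3.20 and 3.28 against 8.40 and 10.8 CPM (1.57 ± 0.24, adjusted p = 0.00331), and Cdkn2b, which encodes the cell-cycle inhibitor p15, had 6 and 4 counts in control against 54 and 50 in MERVL-KD embryos (3.00 ± 0.66, adjusted p = 0.0236).

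**Figure D2:**
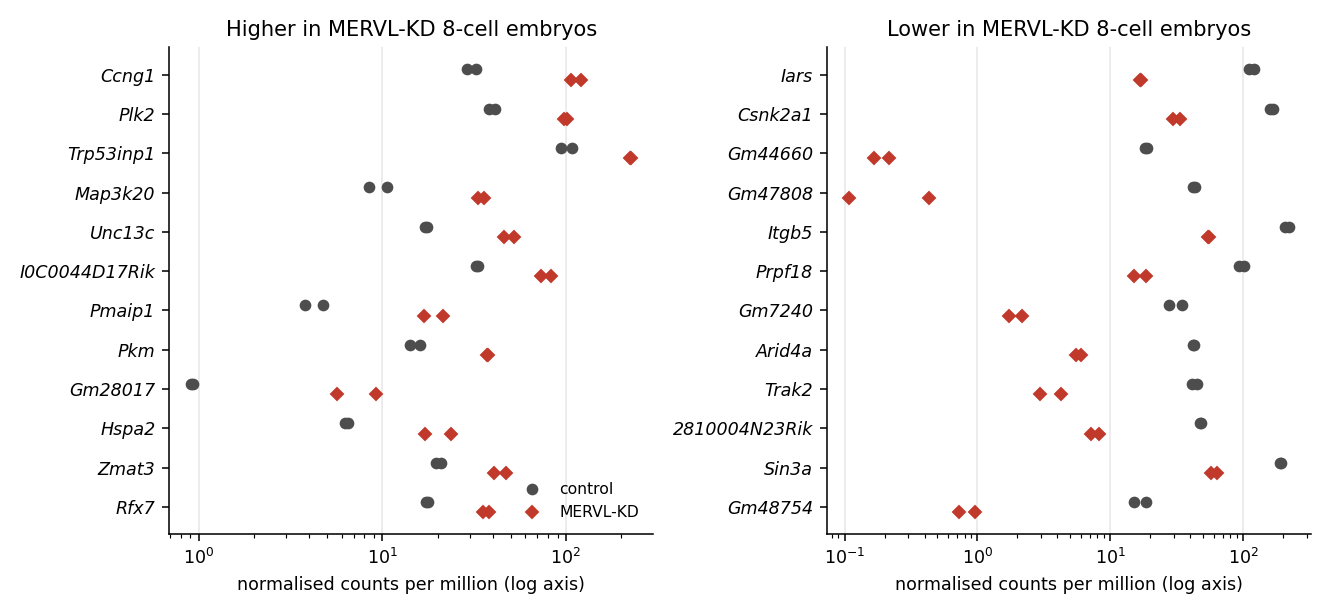
CPM in each library (log axis) for the first 12 genes of each direction by adjusted p, with grey circles for the 2 control and red diamonds for the 2 MERVL-KD libraries. The groups are separate in all 24 genes, as in all 118 higher and all 195 lower DEGs, so separation does not mark out the genes shown. Gm44660 and Gm47808 lie below 1 CPM in both MERVL-KD libraries.

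The first lower DEGs by adjusted p, Iars and Csnk2a1, hold a MERVL copy. Csnk2a1, which encodes the catalytic subunit alpha of casein kinase 2, stood at 167 and 158 CPM in control and 29.7 and 33.3 CPM in MERVL-KD embryos (-2.37 ± 0.11, adjusted p = 2.31e-07). Iars, the cytosolic isoleucyl-tRNA synthetase that charges isoleucine onto its tRNA, stood at 120 and 110 against 16.7 and 17.1 CPM (-2.76 ± 0.11, adjusted p = 1.43e-07). On the length-scaled RPKM scale the mean levels were 22.9 and 4.44 for Csnk2a1 and 21.8 and 3.21 for Iars, so both genes went from like levels in control to like levels in MERVL-KD embryos. Csnk2a3, a close copy of Csnk2a1 whose reads may be hard to assign, stood at 5.39 and 6.12 against 0.808 and 0.429 CPM (-3.22 ± 0.38).

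The MERVL-ASO sites inside these genes are shown because they carry the ASO target in the sense direction of the gene. They are written 5′ to 3′ on the transcribed strand, from GRCm38, and capitals mark bases that do not pair with the ASO. Csnk2a1 spans chr2:152226839-152281852 and Iars chr13:49682100-49734267, both on the plus strand, and the sites of both lie in introns. Gm44660, a long non-coding gene at chr7:19897334-19899798 on the plus strand, has its sites in an exon.
Csnk2a1 with MERVL-ASO1, chr2:152263922-152263941: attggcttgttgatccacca
Csnk2a1 with MERVL-ASO2, chr2:152265495-152265514: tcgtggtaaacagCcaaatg
Csnk2a1 with MERVL-ASO3, chr2:152265747-152265766: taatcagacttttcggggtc
Iars with MERVL-ASO1, chr13:49694355-49694374: attggcttgttgatccCcca
Iars with MERVL-ASO3, chr13:49696141-49696160: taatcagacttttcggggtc
Gm44660 with MERVL-ASO3, chr7:19899452-19899471: taatcagacttttcTTggtc
The 6 DEGs with the smallest adjusted p among lower genes with perfect sites (Arid4a, Csnk2a1, Gm44660, Gm47808, Gm7240 and Iars) held 16 sites with at most 2 mismatches, 10 of them without a mismatch. Every MERVL-ASO2 site among them had the same unpaired base.

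A site was then counted for every tested gene, as a stretch of the transcribed strand between the start and end of the gene with at most 2 mismatches to a MERVL-ASO. Of 18414 tested genes 141 held one (0.766%), and 49 of these 141 were lower DEGs and 0 higher. These 49 made up 25.1% of the 195 lower DEGs, and 34.8% of site genes were lower DEGs against 0.799% of the 18273 genes without a site. The median log2 fold change was -0.79 in site genes, 116 of which lay below 0, and 0.01 in the others. Of the 49, 20 had at most 6 counts in each MERVL-KD library, so they entered the test through the control group alone and could only come out lower. Of the 121 site genes above that level, 29 were lower DEGs, with a median of -0.59, against 0.731% of the genes without a site above it. Of 103 genes with a site in the opposite direction alone, 4 were lower DEGs (3.88%) and 2 higher, 9 fell at an adjusted p under 0.05 (8.74%, against 3.56% of all genes), and their median was -0.01. The scrambled ASO had a site of this kind in 1 tested gene, which was not a DEG.

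Relaxing the site to 3 mismatches gave 183 genes with 51 lower DEGs, and 4 mismatches gave 913 genes with 61 lower and 4 higher. Allowing none gave 124 genes with 46 lower DEGs. Nearly all of the lower DEGs with a site therefore already had a perfect one. Among the site genes, 128 held a site of MERVL-ASO1, 118 of MERVL-ASO3 and 67 of MERVL-ASO2, with 47, 39 and 19 lower DEGs. Most sites of different ASOs lay in the same genes, so the contribution of each ASO cannot be told apart. Because a site also marks a MERVL copy, pairing of the ASO with the RNA and loss of a transcript that starts in the MERVL copy cannot be told apart either.

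**Figure D3:**
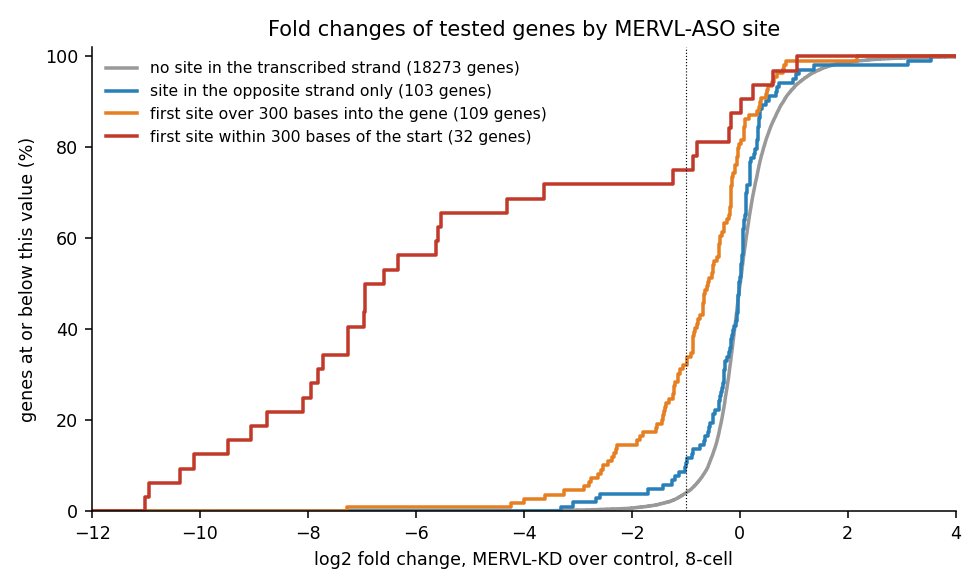
Cumulative share of genes (%) at or below each log2 fold change of MERVL-KD over control, for 32 genes whose first site lies within 300 bases of the gene start (red), 109 genes with the first site further in (orange), 103 genes with sites in the opposite direction alone (blue) and the 18273 genes without a site in the transcribed strand (grey, which include the blue). The dotted line marks a 2-fold fall. The red and orange curves lie to the left of the grey, and the blue lies near it.

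The position of the site divided the genes further, by a rule chosen after the data were seen. In 32 genes the first site lay within 300 bases of the gene start, and 23 of these were lower DEGs, none of them protein coding, with a median log2 fold change of -6.76 over the 32, or -4.81 with genes at the floor of 6 counts per library set to their bound. These genes were short, with a median span of 5132 bases, and 19 of the 23 had at most 6 counts in each MERVL-KD library, so they entered the test through the control group alone. Gm48271 had 211 and 248 counts in control and 0 in both MERVL-KD libraries, at least 48.5-fold lower against that floor. Gm49015 had 223 and 208 counts against 0 and 0, at least 45.8-fold lower, and Gm50331 had 127 and 166 against 0 and 0, at least 30.9-fold lower. Gm47808, with 1290 and 1360 counts against 4 and 18, and Gm44660, with 565 and 590 against 8 and 7, kept a few counts. In these genes the MERVL sequence lies within the annotated gene, close to its start. Gm49015 and Gm50331 spanned 5131 and 5132 bases, with sites of all 3 ASOs, the first at 258 and 259 bases. Such a gene may consist largely of a MERVL copy, and gene and repeat rows may hold the same reads. Its fall and that of MERVL-int therefore cannot be told apart.

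In the other 109 genes the first site lay further in, and 93 of these were protein coding. Of these 93, 23 were lower DEGs (24.7%), none rose, 75 lay below 0 and the median was -0.51. No protein-coding DEG of this kind was at the floor in MERVL-KD embryos. The strongest was Tubgcp2, a component of the gamma-tubulin complex, at 13.8 and 13.9 against 0.619 and 0.834 CPM (-4.24, adjusted p = 2.80e-06). Trak2, an adaptor for the transport of mitochondria along microtubules, stood at 41.5 and 45.1 against 4.23 and 2.93 CPM (-3.60 ± 0.20). Arid4a, a chromatin regulator that binds the retinoblastoma protein, stood at 42.1 and 42.8 against 5.98 and 5.48 CPM (-2.89 ± 0.16). Prpf18, a factor of the splicing reaction, stood at 101 and 93.7 against 18.6 and 15.2 CPM (-2.53 ± 0.13). All 4 genes kept a measurable level in both MERVL-KD libraries.

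Other protein-coding site genes that fell at least 2-fold included Lmx1a, 2810004N23Rik, Ercc4, Arl15, Zfp677, Lonp2, Sgms1, Scamp1, Sec1, Mcm9, Nom1, Usp32, Cers6, Antxr1, Snapc3 and Daam1. Their products include a DNA repair nuclease subunit (Ercc4), a peroxisomal protease (Lonp2), a replication-associated helicase (Mcm9) and a ceramide synthase (Cers6). Ercc4 stood at 9.63 and 8.23 against 1.54 and 1.48 CPM (-2.56 ± 0.26, adjusted p = 0.000138). Lonp2 stood at 36.3 and 40.1 against 8.81 and 7.05 CPM (-2.27 ± 0.17, adjusted p = 9.77e-06). The functions of these host genes were varied.

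Not every gene with an intronic site fell. Of 133 genes with sites in introns alone, 42 were lower DEGs, 8 fell by less than 2-fold and 83 did not pass. The 42 had a median span of 24678 bases and a median control level of 9.13 CPM, and the 83 a median span of 134284 bases and a median control level of 1.96 CPM. Of the 42, 16 were at the floor of 6 counts in both MERVL-KD libraries, and all 16 spanned at most 25000 bases, so a share by span over all genes draws on members that could only come out lower. Among protein-coding genes with intronic sites, none of which was at the floor, 3 of 7 genes up to 25000 bases, 12 of 34 between 25000 and 100000 bases, and 8 of 55 longer ones were lower DEGs, with medians of -0.20, -0.85 and -0.38. Level and length vary together here, so their parts cannot be told apart. Sites outside genes, within 10000 bases on the same strand, were upstream of 49 genes, of which 6 were lower DEGs (12.2%, median -0.57), and downstream of 41, of which 3 were lower (7.32%) and 1 higher (median -0.09), against 1.06% lower among all genes. Of these lower DEGs, 2 with an upstream and 1 with a downstream site were at the floor in MERVL-KD embryos.

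The other 146 lower DEGs, 74.9% of the total, held no site. Of these, 13 were at the floor of 6 counts in both MERVL-KD libraries, and 3 are given here outside the naming rule, after their values were seen. Gm42713 had 174 and 147 counts in control against 0 and 1, Gm45136 had 133 and 157 against 0 and 2, and Gm48113, with a site downstream of it, had 94 and 78 against 0 and 0, at least 18.3-fold lower. By adjusted p, Itgb5, an integrin beta subunit of cell adhesion, was the first of the 146, at 221 and 205 CPM in control and 54.5 and 55.5 CPM in MERVL-KD embryos (-1.96 ± 0.09, adjusted p = 2.56e-07). Sin3a, the scaffold of a histone deacetylase complex, stood at 189 and 191 against 63.3 and 57.4 CPM (-1.66 ± 0.10, adjusted p = 1.32e-06). Both genes were abundant, with mean control levels of 60.0 and 35.3 RPKM. Socs7, an adaptor of cytokine signalling, stood at 109 in both controls against 38.1 and 36.2 CPM (-1.55 ± 0.10). Bzw2, a regulator of translation initiation, stood at 141 and 121 against 45.5 and 47.0 CPM (-1.50 ± 0.11), and Hbp1, a transcriptional repressor, at 44.7 and 41.5 against 17.0 and 14.1 CPM (-1.47 ± 0.15). In each, the MERVL-KD replicates lay close together, and both lay under both controls, as in all 195 lower DEGs. By type, 117 of the 146 were protein coding, against 23 of the 49 with a site and 13572 of the 18414 tested genes. Chosen after their values were seen, 2 genes of mitochondrial gene expression and assembly without a site were also lower: Polrmt, the mitochondrial RNA polymerase, at 184 and 160 against 78.6 and 80.0 CPM (-1.12 ± 0.10), and Cox10, a heme synthesis enzyme of the respiratory chain, at 28.7 and 26.5 against 6.87 and 7.58 CPM (-1.93 ± 0.17).

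Genes of the coming developmental steps were described by lists, beside shares of 0.641% higher and 1.06% lower DEGs over all genes. Among 33 genes of the trophectoderm and Hippo pathway, 1 was a higher and 1 a lower DEG, with a median of -0.10. Vgll4, a cofactor that competes with YAP for TEAD factors, stood at 18.7 and 18.6 against 3.45 and 3.27 CPM (-2.47 ± 0.20, adjusted p = 1.63e-05). Amotl1, a junctional binder of YAP, stood at 5.05 and 6.77 against 15.9 and 13.9 CPM (1.33 ± 0.21, adjusted p = 0.00409). Nf2, an upstream activator of Hippo signalling, fell by 0.44 ± 0.09 and Mob1b, a cofactor of the LATS kinases, rose by 0.45 ± 0.11 on the log2 scale. Mob1b did not pass without control replicate 1 or 2 or MERVL-KD replicate 2 (adjusted p = 0.0739, 0.114 and 0.0884), nor Nf2 without either control (0.0601 and 0.0586). Changes in this list went in both directions.

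In the list of compaction, junctions and polarity, 1 of 41 genes was a DEG, against 0.641% higher and 1.06% lower DEGs over all genes. Myh10, a nonmuscle myosin heavy chain of cortical contraction, stood at 139 and 130 against 51.9 and 69.1 CPM (-1.15 ± 0.13, adjusted p = 0.000357), or -0.96 without MERVL-KD replicate 1. Epcam, an epithelial adhesion molecule, rose from 24.2 and 26.0 to 45.2 and 39.5 CPM (0.75 ± 0.14, adjusted p = 0.00856), as did Myh9 and Tjp1 by less. Pard6b, a polarity protein of the apical domain, fell from 15.4 and 13.7 to 8.81 and 8.01 CPM (-0.79 ± 0.19, adjusted p = 0.0321), and Crb3, an apical membrane protein, by 0.56 ± 0.13 on the log2 scale. Pard6b did not pass without control replicate 1 (adjusted p = 0.157), nor Crb3 without either control (0.112 and 0.0972). Epcam also moved the summed markers of oviduct epithelium, at 26.0 and 28.0 against 47.0 and 41.9 CPM. Of the 3 tested markers in that list, Epcam was the only one to pass.

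Ion and water transport, which fills the blastocyst cavity, had 1 DEG among 11 genes. The shares over all genes were 0.641% higher and 1.06% lower DEGs. Atp1b1, a beta subunit of the sodium pump, stood at 5.63 and 6.86 against 12.7 and 14.2 CPM (1.11 ± 0.20, adjusted p = 0.0102), and Atp1b2, another beta subunit, rose by 0.83 ± 0.17. The change of Atp1b1 was 0.97 without control replicate 1, and Atp1b2 did not pass without control replicate 2 (adjusted p = 0.0671). The water channels Aqp9 and Aqp3 fell by 0.87 ± 0.12 and 0.68 ± 0.16 on the log2 scale. Aqp9 was at 141 and 145 against 69.0 and 87.4 CPM and held 3 intronic MERVL-ASO sites, while Aqp3 held none and did not pass without control replicate 1 (adjusted p = 0.292). Among 36 genes of growth factor signalling, 0 rose and 2 were lower DEGs. Erbb2, a receptor tyrosine kinase, stood at 15.4 and 13.5 against 6.06 and 5.05 CPM (-1.38 ± 0.20, adjusted p = 0.00249), and Il6st, the shared gp130 receptor subunit of the LIF family, at 14.2 and 13.1 against 6.06 and 3.81 CPM (-1.47 ± 0.24, adjusted p = 0.00522). Spry4, a feedback inhibitor of receptor tyrosine kinases, fell by 0.90 ± 0.15.

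The pluripotency and inner cell mass list had 0 DEGs among 29 tested genes, but 9 of them fell by less than 2-fold, against 3.56% of all genes, and none rose. Pou5f1, which encodes Oct4, stood at 223 and 208 against 128 and 140 CPM (-0.68 ± 0.09, adjusted p = 0.00116). Tdh, a threonine dehydrogenase of pluripotent cells, stood at 18.4 and 16.6 against 8.51 and 9.39 CPM (-0.97 ± 0.18, adjusted p = 0.0102). Klf2, a Krüppel-like factor, stood at 180 and 186 against 130 and 135 CPM (-0.47 ± 0.09, adjusted p = 0.0103) and did not pass without control replicate 2 (adjusted p = 0.0556). The 2 groups were separate in all 3 genes, which were chosen by adjusted p. Sall4, Tdgf1, Nanog, Esrrb, Gata6 and Dppa3 also passed, and the median of the list was -0.16, which became -0.04 with 4 genes lower and 1 higher when counts were divided by library size alone. The 9 genes became 5 and 3 without control replicate 1 or 2 and 3 in a fit of all 12 libraries. Without MERVL-KD replicate 2, 12 fell, 2 of them as DEGs, and 1 was a higher DEG.

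Small falls were also found among genes of growth. Of 38 genes of ribosome biogenesis 36 lay below 0, with a median of -0.23, and 7 fell, against 3.56% of all genes. Nop2, a methyltransferase of ribosomal RNA, stood at 171 and 197 against 117 and 111 CPM (-0.69 ± 0.10, adjusted p = 0.00169). Of 79 cytosolic ribosomal protein genes 69 lay below 0, with a median of -0.14, and 6 fell, the first being Rpl3, at 777 and 720 against 465 and 524 CPM (-0.60 ± 0.08, adjusted p = 0.00173). With scaling by library size alone, where all genes had a median of 0.13, 2 genes of each list fell and the medians were -0.10 and -0.01. Without control replicate 1 or 2, 1 and 2 genes of ribosome biogenesis and 3 and 3 ribosomal protein genes fell, and without MERVL-KD replicate 1 or 2, 9 and 14 and, in turn, 11 and 24. Among 23 cytosolic aminoacyl-tRNA synthetases 19 lay below 0, with a median of -0.20, and beside Iars the leucyl enzyme Lars (-0.60 ± 0.12) and the glutaminyl enzyme Qars (-0.42 ± 0.10) fell, while 0 of 17 mitochondrial synthetases passed. Without control replicate 1 neither Lars nor Qars passed (adjusted p = 0.112 and 0.333). Iars was the only DEG and the only site gene among the cytosolic synthetases.

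Falls under 2-fold were also found in cell cycle and nuclear lists. Of 35 cell cycle genes, 5 fell by less than 2-fold and none rose: Cdk1, Ccnb1, Bub1, Cdc20 and Cdk4. The share over all genes was 3.56%, and the 5 became 3 without either control and 10, with 1 higher DEG, without MERVL-KD replicate 2. Cdk1, the kinase of mitotic entry, stood at 151 and 157 against 95.7 and 99.8 CPM (-0.65 ± 0.09, adjusted p = 0.00154). Falls of this size were found in 3 of 42 DNA replication genes (Mcm2, and Mcm10 and Cdt1, which did not pass without control replicate 1, with adjusted p = 0.205 and 0.174), 5 of 39 splicing genes and 5 of 33 genes of chromatin remodelling and Polycomb, led by Ep400 (-0.57 ± 0.10). Leaving out 1 library gave 1 to 7, 3 to 10 and 2 to 7 falls in these lists. In the chromatin list 1 gene, Bmi1, rose. With scaling by library size alone, where all genes had a median of 0.13, falls were fewer. Cell cycle then had 3 falls and 1 higher DEG (median -0.05), and DNA replication 1 fall and 2 rises (0.02). Splicing had 2 falls and 1 rise (-0.05), and chromatin remodelling and Polycomb 2 falls and 3 rises (0.07). Trim28, the corepressor that silences retroviral sequences, stood at 595 and 582 against 398 and 393 CPM (-0.57 ± 0.07, adjusted p = 0.00098), and Zfp809, a zinc finger protein that guides it to retroviral DNA, rose from 62.4 and 60.7 to 81.0 and 99.5 CPM (0.55 ± 0.12, adjusted p = 0.020). Both belong to the list of H3K9 methylation and retroviral silencing, with 29 tested genes and a median of -0.10. In this list 2 genes fell (Trim28 and Hdac1) and 1 rose (Zfp809), against 3.56% and 1.5% of all genes. With scaling by library size alone 2 fell and 2 rose.

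Metabolic and housekeeping lists held 1 DEG or 0 each, and lists of this size cannot show fewer DEGs than the shares over all genes. Over all genes, 0.641% were higher and 1.06% lower DEGs, and 1.5% rose and 3.56% fell at an adjusted p under 0.05. In glycolysis, pyruvate use and the TCA cycle, Pkm was the only DEG among 36 genes. Ogdh, a TCA cycle dehydrogenase, just missed the fold threshold at 68.2 and 72.2 against 35.6 and 35.7 CPM (-0.98 ± 0.11, adjusted p = 0.000342), and Slc2a3, a glucose transporter, rose by 0.62 ± 0.13 but did not pass without control replicate 1 (adjusted p = 0.0734). Of 38 nuclear genes of oxidative phosphorylation 2 fell, and 0 of 23 genes of cholesterol synthesis, 0 of 32 proteasome genes and 0 of 20 imprinted genes passed. In the heat shock list 6 of 19 genes passed. Beside Hspa2, Hspa5, the main chaperone of the endoplasmic reticulum, rose by 0.41 ± 0.09 on the log2 scale. Hspa8 and Hsp90aa1, abundant constitutive chaperones, fell by 0.52 ± 0.07 and 0.39 ± 0.07, the transcription factor Hsf2 by 0.62 ± 0.12 and the cochaperone Dnajb1 by 0.74 ± 0.15 (Hspa5 and Dnajb1 are outside the naming rule and were added after their values were seen). Without control replicate 1, 1 gene of the list rose and 1 fell. Without control replicate 1 Hsp90aa1 and Csnk1g3 did not pass (adjusted p = 0.0847 and 0.0996). In the casein kinase list 3 of 9 passed: beside Csnk2a1, Csnk1g1 and Csnk1g3 rose by 0.51 ± 0.09 and 0.54 ± 0.11, while Csnk2b, the regulatory partner of Csnk2a1, was at 87.9 and 97.1 against 79.2 and 80.8 CPM and did not pass (-0.21 ± 0.10, adjusted p = 0.284). All 15 transcripts of the mitochondrial genome were listed at 0 and could not be tested.

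Lists of genes tied to earlier stages held 1 DEG or 0 each, where all genes held 0.641% higher and 1.06% lower DEGs. Lists of this size cannot show fewer DEGs than those shares. Of 32 tested markers of the 2-cell stage, Spz1, a helix-loop-helix factor, was the only DEG, at 9.90 and 8.81 against 22.4 and 18.9 CPM (1.14 ± 0.18, adjusted p = 0.00375). With DESeq2, a replicate block, halved counts or library size alone 2 of these markers were higher DEGs, as in a fit of all 12 libraries and without control replicate 1 or either MERVL-KD replicate, and 3 were when genes with any count were tested. Sp110 and Nelfa fell by 0.69 ± 0.08 and 0.65 ± 0.13 on the log2 scale. Nelfa, a subunit of the negative elongation factor, held 3 intronic MERVL-ASO sites, and it did not pass without control replicate 2 (adjusted p = 0.0614). Among 19 Obox and other genome activation regulators, Obox6 fell by 0.43 ± 0.08 and Elf1 rose by 0.77 ± 0.16, and Obox6 did not pass without control replicate 1 (adjusted p = 0.0522). Of 36 oocyte and maternal transcripts, Oog1 was the only DEG, at 18.2 and 25.5 against 11.3 and 10.3 CPM (-1.02 ± 0.19, adjusted p = 0.0114), or -0.75 without control replicate 2 and -0.96 without MERVL-KD replicate 2, and it belongs to a family of near-identical copies, so its count is uncertain. The 2-cell marker list as a whole had a median of 0.04.

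**Figure D4:**
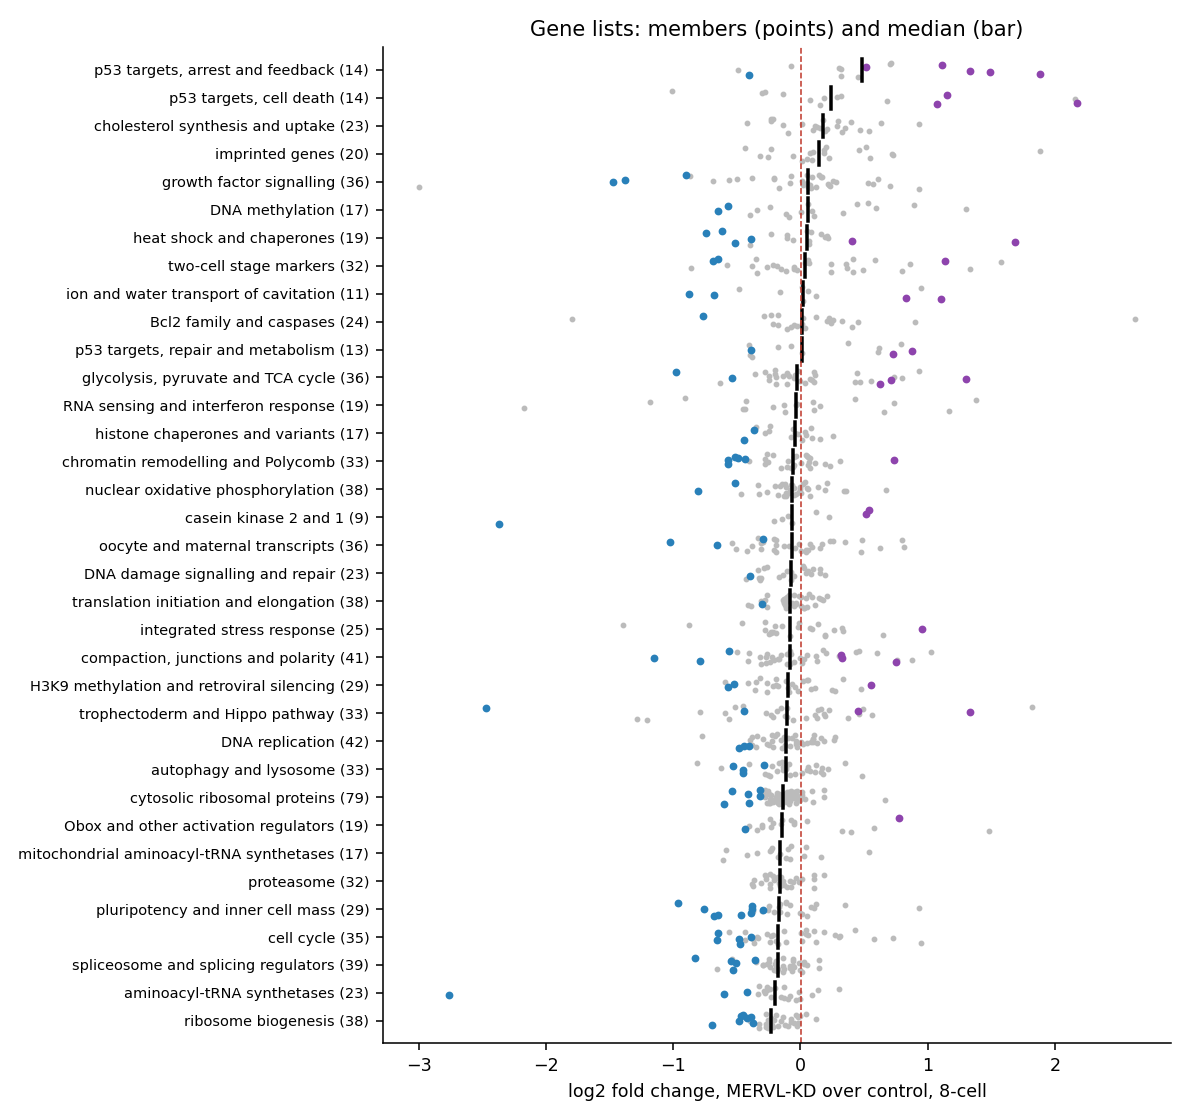
Log2 fold change of MERVL-KD over control for the tested members of 35 gene lists (points) with each list's median (black bar) and the median of all genes (dashed line), lists being ordered by median and followed by the number of genes tested. Purple points rose and blue points fell at an adjusted p under 0.05, and values beyond 3 on either side are drawn at 3. Both lists of p53 targets for arrest and cell death have the highest medians, 0.48 and 0.24, and ribosome biogenesis the lowest, -0.23.

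The same libraries' counterparts at the 2-cell and 4-cell stages, separate pools of embryos with their own controls, gave the same comparison at those stages. Of the 118 higher DEGs, 24 were also higher DEGs in 2-cell and 47 in 4-cell embryos, none was lower at the 4-cell stage, and 66 were DEGs at neither. Of the 195 lower DEGs, 78 were lower in 2-cell and 141 in 4-cell embryos, 2 and 1 were higher there, and 46 were DEGs at neither. Of the 49 with a site, 33 were lower in 2-cell and 46 in 4-cell embryos, against 45 and 95 of the 146 without a site. The shares of all tested genes that were DEGs at those stages are not given here, so these overlaps cannot be read against a background. Of the 49, 20 were at the floor in both MERVL-KD libraries of the main comparison, against 13 of the 146. The counts therefore do not separate the part of a site from that of the floor. Being a DEG at 1 stage alone does not show a difference, which was tested in a fit of all 12 libraries.

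That test found a MERVL-KD effect that differed between the 8-cell and 2-cell stages in 968 of 24040 genes (4.03%) and between the 8-cell and 4-cell stages in 150 (0.624%). Among 8-cell DEGs the effect differed from the 2-cell stage in 36 of the 118 higher and 68 of the 195 lower genes, and from the 4-cell stage in 1 and 14. These genes were chosen as DEGs at the 8-cell stage, so the shares cannot be read against the background as a test. Map3k20 had a log2 fold change of 0.09, 2.41 and 1.85 at the 2-, 4- and 8-cell stages in turn, and Pkm 0.01, 1.06 and 1.30, whereas Plk2 had 1.33, 2.84 and 1.33. Neither difference of Plk2 passed, against the 2-cell (0.07, adjusted p = 0.960) or the 4-cell stage (-1.51, adjusted p = 0.0931). Csnk2a1 went from -0.41 to -2.12 and -2.37, and Iars from -1.06 to -1.74 and -2.76, differing from the 4-cell stage too (adjusted p = 0.00184). Erbb2 was higher at the 2-cell stage (2.13, adjusted p = 0.0255) and lower at the 8-cell stage. Ccng1, in contrast, had a larger effect at the 4-cell stage (3.01) than at the 8-cell stage (difference -1.13, adjusted p = 0.0393).

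**Figure D5:**
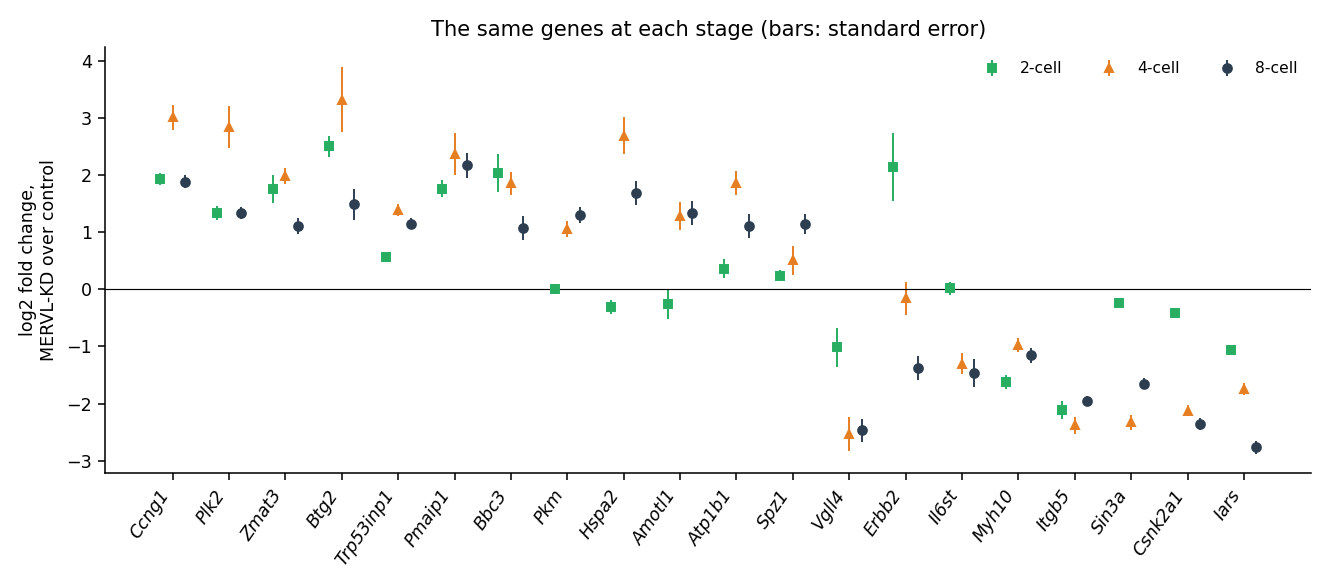
Log2 fold change of MERVL-KD over control, with its standard error as a bar, for 20 of the named genes at the 2-cell (green squares), 4-cell (orange triangles) and 8-cell stage (dark circles). The p53 targets Ccng1, Plk2, Zmat3, Btg2, Pmaip1 and Bbc3 lie above 1 at all 3 stages, Pkm, Hspa2 and Amotl1 lie between -0.31 and 0.01 at the 2-cell stage and above 1 later, and Iars falls from -1.06 to -2.76.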

How the data were processed

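Total RNA-seq libraries of mouse embryos were made with a stranded kit after depletion of ribosomal RNA, and the authors aligned the reads to GRCm38 with STAR 2.5.3a, keeping unique alignments, and counted them per gene (GENCODE annotation) and per repeat family (RepeatMasker). The deposited values are these raw counts, with no normalization. Most counts between 1 and 50 were even (73.7% to 74.7% in 8-cell libraries), so a read pair usually gave 2 counts, and the floor used for folds against 0 was set to 6 counts, or 3 read pairs, per library. It covers counting error only.

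Counts of the 4 8-cell libraries were fitted with edgeR 4.0.16 in R 4.3.3 (filterByExpr, TMM normalization, robust quasi-likelihood test), genes and repeat families together, with p-values adjusted by Benjamini-Hochberg over all tested features. A DEG had to change at least 2-fold with an adjusted p under 0.05. CPM values use TMM factors, and RPKM divides them by exon length. Standard errors were derived from the test, as the absolute log2 fold change divided by the square root of the F statistic. They draw on a spread estimated with the help of all features, not on the 2 replicates of a gene alone. Effects of stages were compared by interaction contrasts in 1 fit of 12 libraries. ASO sites were searched on both strands of GRCm38 with up to 4 mismatches, with exons placed by the coordinates in the deposited count files. Gene types were taken by symbol from GENCODE vM21, which matched 97.5% of the tested genes. On simulated 8-cell counts, 94 of 100 genes changed 4-fold and 88 of 100 changed 3-fold were found, and 4 unchanged features were also called. Genes of low control counts were left out of the changed set and no 2-fold change was simulated, so these shares do not cover them.

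The members and gene lists were chosen with earlier results of these data known. Named genes were, in each direction, the 12 DEGs with the smallest adjusted p and the same direction in both replicate numbers, every DEG in a list, up to 3 further members per list, Trp53 and MERVL-int, 5 DEGs per stage whose effect differed most from the other stages, and 6 genes for the sites. Same-numbered replicates did not deviate together (correlation 0.03), the labels name no batch, and p-values measure only the spread between these libraries. Alternatives were another scaling (DESeq2 size factors or library size), other filters, a replicate block, DESeq2 1.42.0, halved counts and leaving out each library. The positional ASO rules, the 6-count floor and sites outside genes were chosen after seeing the data. The authors' own result tables were not used, and some genes are not reported here.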

Additional observations from a re-analysis of the deposited data

Results flagged for a closer look

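The effect of MERVL-KD differed between stages in a test of the difference itself (edgeR, 1 fit of 12 libraries) for 51 pairs of named gene and stage, with adjusted p from 7.41e-09 to 0.0442. Named genes were chosen partly for this difference. Values here are the log2 fold change at the 8-cell stage minus that at the 2-cell or 4-cell stage. The labels give the 4-cell and 8-cell libraries the same age.

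Against the 2-cell stage the effect was more positive in 22 genes. Among higher DEGs and p53-related genes the difference was 0.66 for Trp53inp1, 1.83 for Map3k20, 1.70 for Unc13c, 1.44 for I0C0044D17Rik, 1.37 for Pkm, 2.07 for Hspa2, 1.15 for Rfx7, 0.59 for Mdm2 and 1.67 for Amotl1. List members that were not DEGs at the 8-cell stage were Csnk1g1 with 0.55, Csnk1g3 with 0.61, Epcam with 0.85, Zfp750 with 1.90, Zfp809 with 0.62 and Nap1l1 with 0.63. A further set had stronger falls at the 2-cell stage than at the 8-cell stage, and for it the difference was 1.67 for Gm44660, 2.17 for Gm48754, 1.42 for Ep400, 1.17 for Kdm4c, 3.12 for Epm2a, 0.96 for Bzw2 and 1.09 for Hbp1.

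It was more negative in 18 genes. Genes of this kind with an intronic MERVL-ASO site had a difference of -1.63 in Iars, -1.88 in Csnk2a1, -1.97 in Prpf18, -3.38 in Gm7240, -1.39 in Arid4a, -2.62 in Trak2 and -2.99 in 2810004N23Rik, whereas Gm48754, given above, holds intronic sites too and had a positive difference. Without a site in the transcribed strand, the difference was -1.35 for Sin3a, -3.42 for Erbb2, -1.41 for Il6st, -1.02 for Spry4 and -3.47 for Nat8f2. It was -0.54 for Pou5f1, -2.17 for Tdh, -0.59 for Tigar, -0.81 for Hsf2, -0.48 for Ubn1 and -1.63 for Cdkn1c. Of these, Tigar held a site in the opposite strand, and Nat8f2 had a site upstream of the gene.

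Against the 4-cell stage, the effect was more positive in Gm48754 (1.98), Kdm4c (0.91), Socs7 (1.01), Bzw2 (1.14) and Hbp1 (1.27), all of which had fallen further at the 4-cell stage. It was more negative in Ccng1 (-1.13), Perp (-2.56) and Cdkn1c (-2.60), which were higher in MERVL-KD embryos at the 4-cell stage, and in Iars (-1.02), Hsf2 (-0.90) and Nat8f2 (-1.45).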

How the results depend on the processing

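In place of 118 genes called higher, 197 were called with scaling by library size alone, 261 when genes with at least 1 count in any library were tested, 180 with a replicate block and 183 in a fit of all 12 libraries, and leaving out 1 library gave 151 to 240. At an adjusted p alone (276), 565, 695 and 455 genes were higher in the first 3 of these settings, 432 with DESeq2 (which gave no adjusted p for 5428 genes), and 216 to 581 without 1 library. Genes lower at an adjusted p alone (656) were 362 with library size and 412 to 1268 without 1 library, and genes called lower 155 to 289 over all settings. Genes whose effect differed between the 8-cell and 4-cell stages were 96 in place of 150 with the block. Up to 4 mismatches, 913 tested genes held a site. The cause of these shifts was not tested. Leaving out 1 library kept 75 to 95 of the 118 higher and 157 to 177 of the 195 lower calls, and each such fit assumes that the lone library varies like the other group. Genes called lower with a site were 46 to 54 in every setting, and 0 genes with a site were called higher. MERVL-int kept its call throughout. Of the values of named genes under alternatives, 1941 kept their side of the threshold, 98 gained and 105 lost it, and none reversed. The replicate numbers share only a number, so a call lost or gained with the block is no measure of an effect. With 2 libraries a group, changes under 2-fold in genes of few counts are poorly resolved.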

Other observations

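Other repeat families moved with MERVL in MERVL-KD 8-cell embryos. Of 739 tested families 9 were lower and 3 higher at 2-fold, while the median family had a log2 fold change of 0.17. MT2_Mm, the long terminal repeat of MERVL, stood at 988 and 952 CPM in control and 497 and 455 CPM in MERVL-KD embryos (-1.03 ± 0.08, adjusted p = 1.12e-05 by edgeR), so it fell far less than MERVL-int. ORR1A0-int and MTA_Mm-int, internal parts of related retrotransposons, fell from 3004 and 3006 to 901 and 930 CPM and from 1953 and 1769 to 585 and 592 CPM. MERVL_2A-int fell by 1.98 ± 0.09 on the log2 scale. The families that rose, RLTR24B_MM, RLTR31A_Mm and RLTR20A, were rare, at 2.57 to 3.71 CPM in control and 5.55 to 7.43 CPM in MERVL-KD embryos.

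A single annotated RNA, CT010467.1, took up to 2.14% of all counts and was called lower, at 22750 and 18492 CPM against 7240 and 10038 CPM (-1.26 ± 0.18, adjusted p = 0.0236). Without the 3 genes that took over 1% of counts in a library, 118 genes were called higher and 194 lower.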
